A study of Mus musculus with 27 samples.

Results

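The proteasome genes described here were the rows of the CAF (cancer-associated fibroblast) sheet whose names begin with Psma to Psmg and a number, without the immunoproteasome subunits Psmb8, Psmb9 and Psmb10. That name rule took 46 of 18855 targets. The CAF segments lay in liver metastases of MC38, a mouse colon carcinoma line, grown from portal vein injection into C57BL6 mice aged 2 months. In 13 regions of interest (ROIs) the injected MC38 cells carried a shRNA against CMTM6, and in 14 ROIs they carried a nontargeting shRNA (control). The knockdown was in the cancer cells and not in the fibroblasts. Each group came from 3 mice, and the labels do not tie a ROI to a mouse, so some ROIs share an animal and p-values over ROIs are too small. Within a ROI, RNA was collected where the section stained for desmin, a filament protein of contractile cells, with the mouse whole transcriptome probe panel of the GeoMx Digital Spatial Profiler.

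The proteasome is the protease that degrades ubiquitin-tagged proteins. Its barrel-shaped core particle is built of α rings (Psma genes) and β rings (Psmb genes), and 3 of the β subunits, encoded by Psmb5, Psmb6 and Psmb7, carry the catalytic sites. A regulatory particle caps the core: its base holds the ATPases that unfold substrates (Psmc genes), and its lid holds the deubiquitinase Psmd14. Other caps include the activator formed by Psme1 and Psme2, which interferon-gamma is known to induce together with the immunoproteasome subunits that replace the catalytic ones. Dedicated chaperones, among them Psmg1 to Psmg4 for the core, assist assembly.

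Of the 46 members, 14 encode the standard core particle, 17 the regulatory particle, 3 its chaperones (Psmd5, Psmd9 and Psmd10), 4 the core chaperones, and 5 activators or an inhibitor (Psme1 to Psme4 and Psmf1). Psmb11 encodes a β subunit known from the thymus. Psmc3ip and Psme3ip1 matched the name rule but are not proteasome subunits. Background was set at 4.12, the 95th percentile of the mean log2(value + 1) over the 27 ROIs of 1067 targets of olfactory, vomeronasal and taste receptors, keratin-associated proteins and defensins. Above it were 45 members, all but Psmb11, and 11317 targets in all.

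The deposited values behave as reads times a factor for each ROI. The reads were 76346 to 2776820 in knockdown ROIs and 659571 to 3269149 in control ROIs. ROI 26 (knockdown) stood apart, with the fewest reads and 1 read worth 14.1 deposited units. Its members had 1 to 30 reads (median 9, with 24 members under 10), against 5 to 1670 (median 159.75) in the other knockdown ROIs and 8 to 1662 (median 222.75) in control ROIs. ROI 26 and control ROI 14 also had the narrowest spread of log2 values within their groups: the 75th percentile lay 0.98 and 0.89 above the median, against group medians of 1.24 and 1.27. The factors set the 75th percentile of the deposited values at 43.9 to 56.4 in knockdown ROIs and 70.3 to 72.6 in control ROIs. For this reason every level below is log2(value + 1) minus the median over all targets of that ROI, in the following called the level. Cmtm6 itself had levels of 1.30 to 1.77 (median 1.59) in knockdown ROIs and 0.91 to 1.91 (median 1.58) in control ROIs. The 14 fibroblast markers were all above background. Their summed deposited value, which carries the ROI factors, was 10769 to 29646 in knockdown ROIs and 20397 to 43391 in control ROIs. Relative to the median target, their median log2 difference was 0.05, with 9 above and 5 below 0 and 0 called in either direction. Of 14 tumour epithelial markers, 2 were above background. The markers called higher in knockdown ROIs were 7 of 7 MHC class II genes (median log2 difference 1.09), 3 of 13 hepatocyte genes (0.99) and 1 of 12 T and NK cell genes (0.29). With a Student t test 0 of the MHC class II genes, 0 of the hepatocyte genes and 1 of the T and NK cell genes were called. Their part in the results on the proteasome was not tested.

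No member was called higher or lower in knockdown ROIs than in control ROIs (limma, Benjamini-Hochberg adjusted over all targets). Among all targets 0.111% were called higher and 0.0053% lower. The smallest adjusted p among the members was 0.422. Before adjustment, 0 members were higher and 3 lower with p under 0.05 (Psmc2, Psme4 and Psme3), against 3.16% of all targets higher and 6.73% lower. With a Student t test 0 members were called and 2 were lower before adjustment. The fitted log2 differences ran from -0.33 (Psmc2) to 0.19 (Psme1), with 32 below and 14 above 0. Their median was -0.04, beside -0.05 over all targets and -0.08 over all targets above background. The sign of that median depended on the scaling: it was 0.01 when each ROI was divided by its 75th percentile and 0.03 when centred on the targets above background. The 95% intervals of 44 members lay within 0.5 log2 of 0, and the bounds over all members ran from -0.65 to 0.43. These intervals treat ROIs of a shared animal as independent and are too narrow. The levels of knockdown and control ROIs overlapped for all 46 members, and non-overlapping groups were found for 0% of all targets. On the deposited scale without centring, 46 of 46 members were called lower in knockdown ROIs (median log2 difference -0.64), beside 94% of all targets (median -0.66). The ROI factors put the 75th percentile of the deposited values at 43.9 to 56.4 in knockdown and 70.3 to 72.6 in control ROIs. The shared shift was seen on the deposited scale, whose normalization was not given in the sources used here. From its own comparison the paper proposes lower gene expression across the CAF transcriptome. The cause of the shift was not tested, and it was not read as a result about the members. For a single target on either scale, fewer cells of a type and less RNA per cell cannot be told apart in bulk segments.

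**Figure D1:**
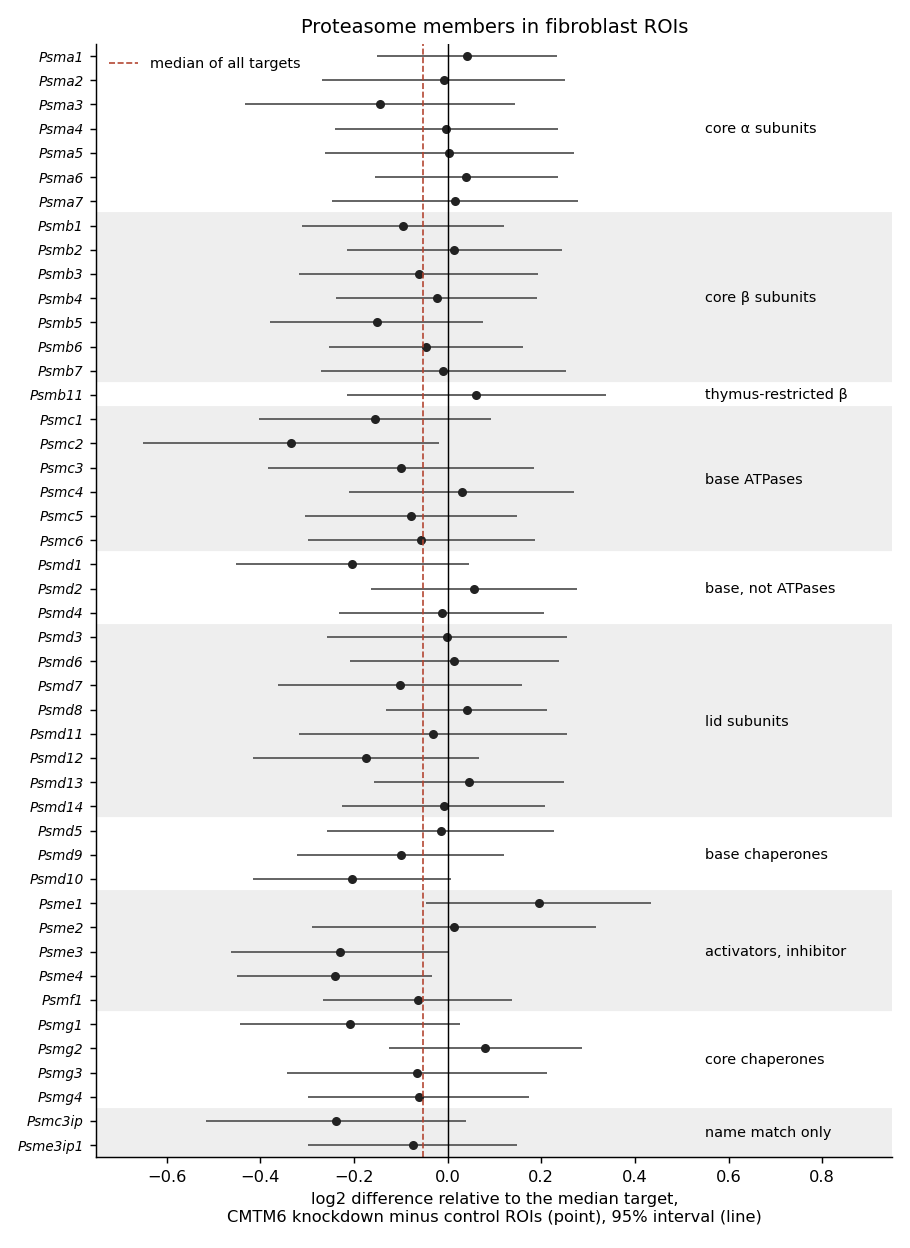
Log2 difference of each member between CMTM6 knockdown (13 ROIs) and control (14 ROIs), relative to the median target, with its 95% interval, grouped by role. The points lie between -0.33 and 0.19, close to the dashed median of all targets at -0.05, and only the intervals of Psmc2 and Psme4 leave out 0.

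The core particle was measured by 14 members with differences of -0.15 to 0.04 (median -0.01), the α subunits at a median of 0.00 and the β subunits at -0.05. Of the catalytic subunits, Psmb5 (the chymotrypsin-like site) had levels of 1.96 to 3.04 (median 2.54) in knockdown ROIs and 2.24 to 3.07 (median 2.74) in control ROIs. Its difference was -0.15 (SE 0.11, adjusted p = 0.664, limma). Psmb6 (the caspase-like site) had levels of 2.86 to 3.73 (median 3.49) in knockdown ROIs and 2.89 to 3.66 (median 3.45) in control ROIs, a difference of -0.05 (SE 0.10). Psmb7 (the trypsin-like site) had levels of 2.42 to 3.78 (median 3.54) in knockdown ROIs and 2.66 to 3.84 (median 3.47) in control ROIs, a difference of -0.01 (SE 0.13). Without ROI 26 these differences were -0.10, -0.00 and 0.07. For each catalytic subunit the groups covered nearly the same range, and the lowest ROI was ROI 26 among knockdown and ROI 14 among control ROIs. Psma7, an α subunit, ran from 3.41 to 5.01 (median 4.71) in knockdown ROIs and from 3.76 to 4.73 (median 4.59) in control ROIs. Since each target has its own probe, levels of different genes were not compared with each other.

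The promoters of the catalytic genes Psmb5 and Psmb6 are shown because both hold the core of the antioxidant response element. The transcription factors NFE2L1 and NFE2L2 are known to act on proteasome genes through this element. Its core was present in 6 of 39 member promoters (15.4%), beside 14.0% of 27025 genes, and Psmb7 was not among those 6. Each line runs 5′ to 3′ on the strand of the gene, from 250 bases before to 50 after the RefSeq start in GRCm38.p6. Capitals mark matches to TGACNNNGC. They cover chr14:54617946-54618245 (minus strand, Psmb5) and chr11:70525107-70525406 (plus strand, Psmb6), and the match begins 47 bases before the start of Psmb5 and 9 bases before that of Psmb6.
Psmb5: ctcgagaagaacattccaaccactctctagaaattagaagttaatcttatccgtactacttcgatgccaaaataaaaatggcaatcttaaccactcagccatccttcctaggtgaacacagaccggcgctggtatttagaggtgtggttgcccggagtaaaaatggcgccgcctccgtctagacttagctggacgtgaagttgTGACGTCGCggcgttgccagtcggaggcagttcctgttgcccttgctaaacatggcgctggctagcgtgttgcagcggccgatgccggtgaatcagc
Psmb6: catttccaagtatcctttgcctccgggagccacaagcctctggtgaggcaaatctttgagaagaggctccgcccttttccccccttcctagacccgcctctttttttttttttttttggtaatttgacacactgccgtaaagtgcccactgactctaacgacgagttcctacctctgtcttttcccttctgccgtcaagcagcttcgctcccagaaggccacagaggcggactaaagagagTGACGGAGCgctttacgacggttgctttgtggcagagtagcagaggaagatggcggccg

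The regulatory particle was measured by 17 members with differences of -0.33 to 0.06 (median -0.03). The base ATPases had a median of -0.09, the other base subunits -0.01 and the lid subunits -0.00. Psmc2, an ATPase of the base, had the lowest difference of all members. Its levels were 0.57 to 2.84 (median 2.45) in knockdown ROIs and 1.99 to 2.90 (median 2.69) in control ROIs, and 10 of 13 knockdown ROIs lay below the control median. The log2 difference was -0.33 (SE 0.15, p = 0.0341, adjusted p = 0.472, limma). ROI 26 was the lowest with 3 reads, and without it the difference was -0.19. The other 5 ATPases had differences of -0.16 to 0.03. Psmd14, the deubiquitinase of the lid, had levels of 2.13 to 3.20 (median 2.87) in knockdown ROIs and 2.26 to 3.18 (median 2.87) in control ROIs. Its difference was -0.01, with a 95% interval of -0.22 to 0.21. Psmd4, the ubiquitin receptor of the base, had levels of 3.14 to 3.86 (median 3.70) in knockdown ROIs and 2.82 to 3.94 (median 3.72) in control ROIs. Psmd2, a scaffold of the base, had levels of 3.49 to 4.22 (median 3.87) in knockdown ROIs and 2.93 to 4.09 (median 3.87) in control ROIs. The scaffold Psmd2 had the highest difference of the particle, at 0.06 (SE 0.11).

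Among the activators, Psme4, the large cap of the core that also acts in histone degradation, had levels of 1.77 to 2.48 (median 2.21) in knockdown ROIs and 1.64 to 2.66 (median 2.47) in control ROIs. It lay below the control median in 12 of 13 knockdown ROIs, with a difference of -0.24 (SE 0.10, p = 0.0209, adjusted p = 0.422, limma). Psme3, the nuclear activator, had levels of 1.77 to 3.08 (median 2.65) in knockdown ROIs and 2.24 to 3.04 (median 2.84) in control ROIs, and its difference was -0.23 (SE 0.11, p = 0.047, adjusted p = 0.496, limma). Psme1 had levels of 3.60 to 4.89 (median 4.39) in knockdown ROIs and 3.61 to 4.67 (median 4.30) in control ROIs. Only 2 of 13 knockdown ROIs lay below the control median, and the difference was 0.19 (SE 0.12, adjusted p = 0.601, limma). Its partner Psme2 had levels of 2.54 to 4.47 (median 3.62) in knockdown ROIs and 3.03 to 4.06 (median 3.84) in control ROIs, a difference of 0.01 (SE 0.15) and of 0.11 without ROI 26. The inhibitor Psmf1 had a difference of -0.06.

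The regulatory chaperones had differences of -0.20 to -0.01 and the core chaperones of -0.21 (Psmg1) to 0.08 (Psmg2). Psmd10, also known as gankyrin, had levels of 0.88 to 1.61 (median 1.29) in knockdown ROIs and 1.14 to 1.99 (median 1.45) in control ROIs, a difference of -0.20 (SE 0.10, adjusted p = 0.506, limma). Of the members that are no subunits, Psmc3ip, a factor of meiotic recombination, had a difference of -0.24 (SE 0.13), and of -0.14 without ROI 26, where it had 1 read. Psmb11, at background, had levels of -1.30 to -0.12 (median -0.48) in knockdown ROIs and -1.32 to -0.05 (median -0.57) in control ROIs.

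Core and regulatory particle were then set against each other within each ROI, as the mean level of the 14 core members minus that of the 17 regulatory members, a value that centring does not change. It was 0.36 to 0.70 (median 0.56) in knockdown ROIs and 0.46 to 0.58 (median 0.55) in control ROIs. The means were 0.56 ± 0.09 (SD, n = 13) and 0.53 ± 0.04 (SD, n = 14), a difference of 0.03, and of 0.05 without ROI 26. With all ROIs the groups differed in this balance by less than the SD of either group. Without ROI 26 the difference was above the SD of the control ROIs. The knockdown ROIs spread more widely, also without ROI 26 (0.48 to 0.70). ROI 26 was the lowest, and ROIs 17, 18 and 19 were the highest, at 0.70, 0.69 and 0.66. The mean level of the 45 members was 2.10 (ROI 26) to 3.02 (median 2.87) in knockdown ROIs and 2.20 (ROI 14) to 3.03 (median 2.83) in control ROIs. The difference of the means was -0.06, -0.01 without ROI 26 and -0.05 without ROIs 26 and 14.

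**Figure D2:**
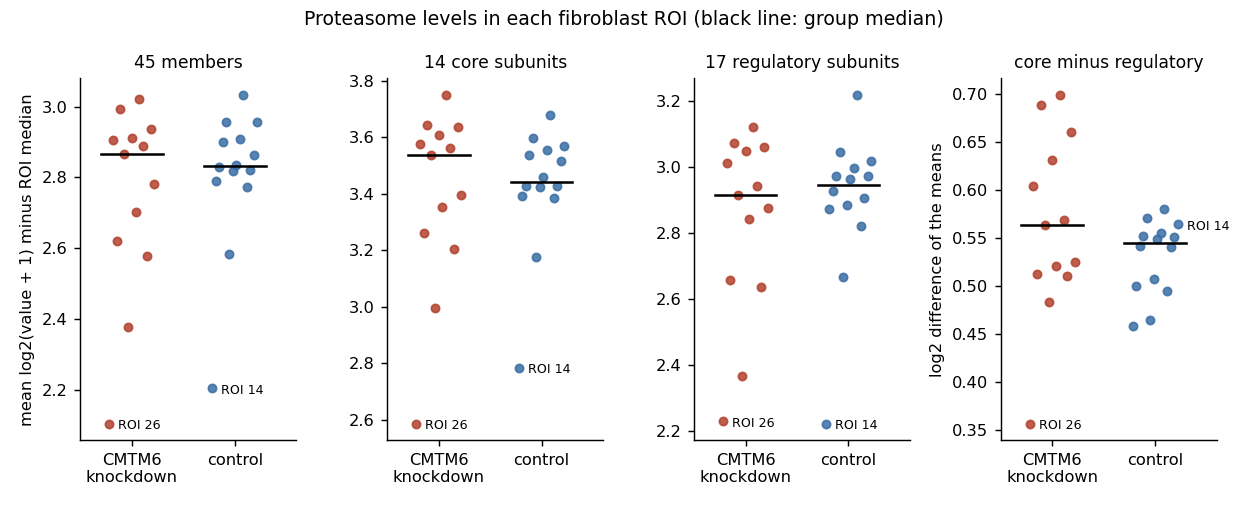
Mean level in each ROI (log2 relative to the ROI median) of the 45 members above background, the core and the regulatory particle, and the core minus the regulatory particle, in knockdown and control ROIs. The groups overlap in each panel, ROI 26 and ROI 14 lie lowest of their groups in the mean of the members, and the core minus regulatory values span 0.36 to 0.70 in knockdown and 0.46 to 0.58 in control ROIs.

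The members varied together from ROI to ROI. Over the 990 pairs of members, the median Pearson r was 0.66 over the 13 knockdown ROIs and 0.67 over the 14 control ROIs, while over all pairs of targets above background it was 0.19 and 0.14. Pairs of core members had a median r of 0.87 in knockdown and 0.82 in control ROIs, pairs of regulatory members 0.68 and 0.75, and pairs of a core with a regulatory member 0.76 and 0.80. These correlations are descriptions: the ROIs share animals, depth and the centring. The targets above background were not matched to the members in level, so the contrast with them can reflect level as well. Without ROI 26 the median over the members was 0.62 in knockdown ROIs (all targets 0.08). Without ROI 14 it was 0.42 in control ROIs (all targets 0.06). The first principal component held 63.9% of the members' variance in knockdown ROIs and 66.3% in control ROIs, and 61.2% without ROI 26 and 44.95% without ROI 14.

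**Figure D3:**
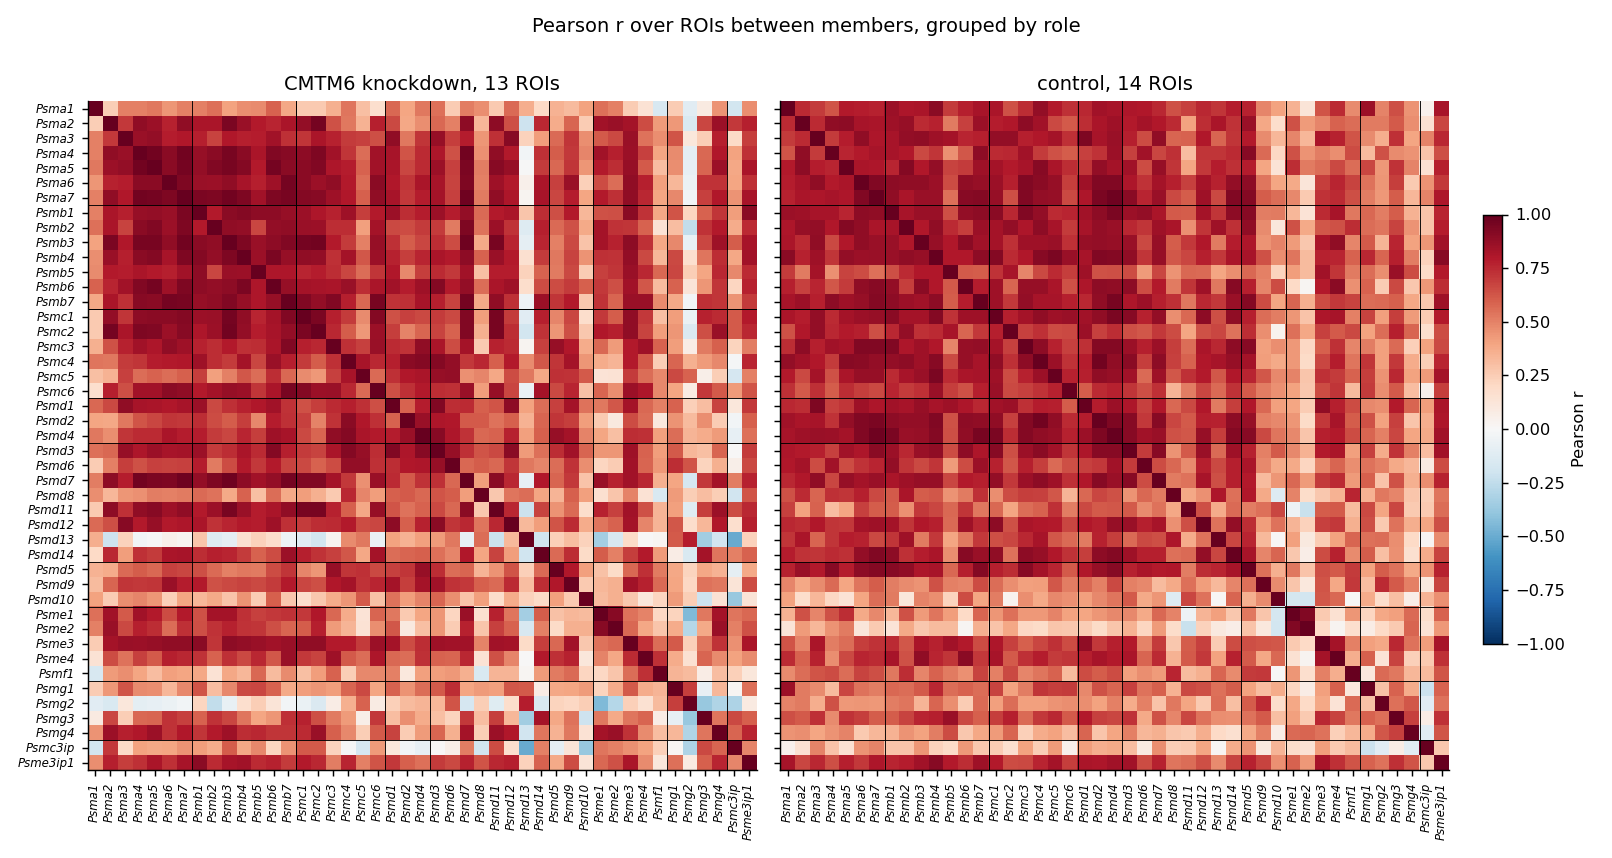
Pearson r over the ROIs of each group between every pair of the 45 members above background, ordered by role (black lines divide the roles). Core and regulatory members form a red block in both groups (median r 0.76 and 0.80 between the particles), while Psmd13 and Psmg2 stand out as pale in knockdown ROIs. In control ROIs Psme1 and Psme2 had r = 0.93 with each other, and 0.53 and 0.32 with the mean of the other members. Psmc3ip (0.32) and Psmd10 (0.43) were also low there.

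The mean of the core and the mean of the regulatory particle had r = 0.96 in knockdown and 0.99 in control ROIs (0.94 without ROI 26 and 0.95 without ROI 14). Measured against the mean of the other members, the closest in knockdown ROIs were Psma7 (r = 0.98), Psma5 and Psmb3 (0.96 each), of the α and β rings. In control ROIs they were Psmd4 (0.97), the β subunit Psmb4 (0.96) and Psmd2 (0.94). The least close in knockdown ROIs were Psmg2 (0.07), Psmd13, a lid subunit (0.10), and Psmc3ip (0.38). The low r of Psmg2 and Psmd13 rested on ROI 26, without which they were 0.64 and 0.83, while that of Psmc3ip was -0.44 without it. In control ROIs the least close were Psme2 (0.32), Psmc3ip (0.32) and Psmd10 (0.43), and without ROI 14 these were -0.08, 0.17 and 0.19.

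The promoter of Psmd4 is shown as that of the member closest to the others in control ROIs. It covers chr3:95042565-95042864 (minus strand). Capitals mark the CCAAT box, which is bound by the factor NF-Y, on either strand (ATTGG on the opposite one), beginning 95 bases before the start and at bases 2 and 21 after it. Capitals also mark, on the opposite strand and 80 bases before the start, the core of the interferon-stimulated response element (GAAA, any 2 bases, GAAA).
Psmd4: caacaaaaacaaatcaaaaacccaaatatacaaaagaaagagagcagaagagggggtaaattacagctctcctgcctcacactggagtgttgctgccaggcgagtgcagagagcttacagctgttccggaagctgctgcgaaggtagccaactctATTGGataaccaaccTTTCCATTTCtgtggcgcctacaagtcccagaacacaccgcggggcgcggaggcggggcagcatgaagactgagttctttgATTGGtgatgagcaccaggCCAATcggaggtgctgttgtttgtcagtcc

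The proteasome was not alone in varying this way. The mean of the members had r = 0.96 in knockdown and 0.90 in control ROIs with the mean of the cytosolic ribosomal proteins, and 0.93 and 0.96 with that of the mitochondrial ribosomal proteins. Pair by pair, members had a median r of 0.75 and 0.71 with cytosolic and of 0.49 and 0.52 with mitochondrial ribosomal proteins. The mean of the members also had r = 0.92 in both groups with the mean of 16 proliferation genes (0.87 without ROI 26 and 0.78 without ROI 14). Spread and depth of the ROIs moved with it too. Its r with the gap between the 75th percentile and the median of a ROI was 0.91 in knockdown and 0.95 in control ROIs. Its r with log2 reads was 0.78 and 0.53 (0.47 without ROI 26 and 0.18 without ROI 14). The gap is computed from the same expression values, and whether it is technical was not tested. After removing a linear fit on reads and on that gap, the median r over the members was 0.16 in knockdown and 0.19 in control ROIs, against 0.02 and 0.00 over all targets. The same fit took the r of the mean of the members to 0.61 and 0.15 with the cytosolic ribosomal proteins, 0.20 and 0.63 with the mitochondrial ones, and 0.64 and 0.21 with the proliferation genes. Between core and regulatory particle it left r = 0.74 in knockdown and 0.83 in control ROIs. When centred on the targets above background, the median r over the members was 0.35 and 0.37, against 0.01 and 0.00 over all targets. That scaling was chosen after the data were seen. Under it, core and regulatory particle had r = 0.89 in knockdown and 0.96 in control ROIs. The 14 tumour epithelial markers, only 2 of them above background, had r = -0.55 in knockdown and -0.68 in control ROIs. With reads and spread removed, r turned to 0.47 in knockdown ROIs and was -0.20 in control ROIs. The 13 hepatocyte genes, 12 of them above background, had r = 0.52 in knockdown and -0.22 in control ROIs (0.36 without ROI 26 and -0.60 without ROI 14). The part of these marker genes in the covariation was not tested.

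**Figure D4:**
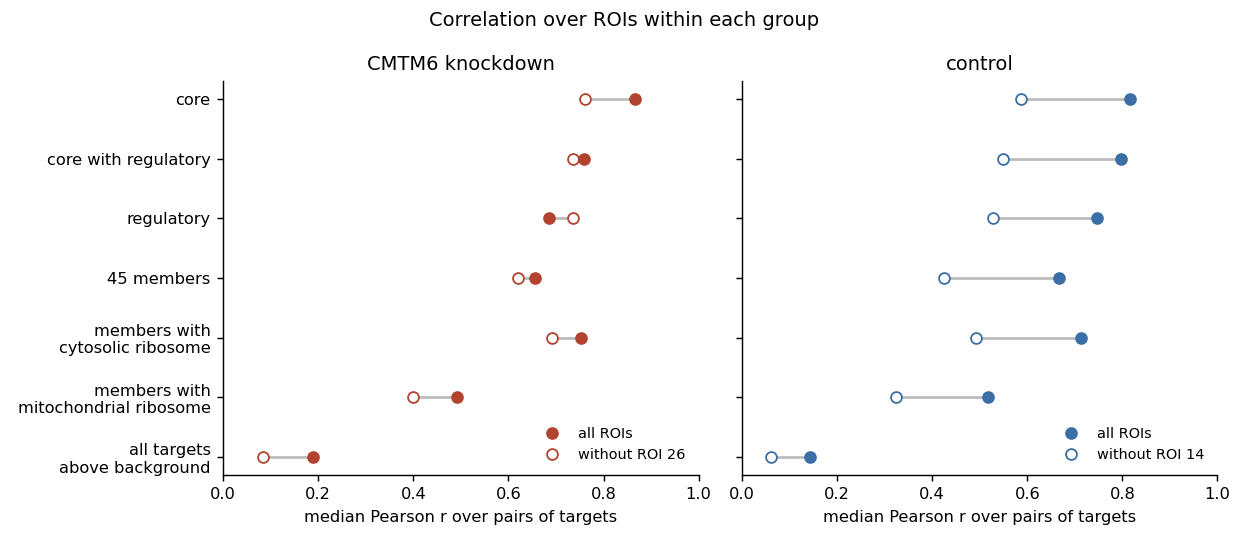
Median Pearson r over pairs of targets in knockdown ROIs (left) and control ROIs (right), with all ROIs (filled) and without ROI 26 or ROI 14 (open). Each set that contains proteasome members lies to the right of all targets above background (0.19 and 0.14), which were not matched in level. Leaving out ROI 14 takes the 45 members to 0.42 in control ROIs.

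Psme1 and Psme2 varied more closely with each other and with the immunoproteasome than with the other members, a description with no test. Psme1 and Psme2 had r = 0.91 with each other in knockdown and 0.93 in control ROIs. Their mean had r = 0.98 in both groups with the mean of Psmb8, Psmb9 and Psmb10 (0.99 without ROI 26 and 0.97 without ROI 14). With the mean of the other 43 members it had r = 0.69 in knockdown and 0.41 in control ROIs, and 0.37 without ROI 26 and -0.00 without ROI 14. After removing the fit on reads and spread, r with the immunoproteasome was 0.98 and 0.97, and with the other members 0.42 and 0.36. The mean of Psme1 and Psme2 was 3.07 (ROI 26) to 4.68 (ROI 18; median 4.02) in knockdown ROIs and 3.32 (ROI 11) to 4.34 (ROI 4; median 4.07) in control ROIs. The immunoproteasome mean was highest and lowest in the same ROIs: 2.42 to 4.27 (median 3.42) in knockdown ROIs and 2.34 to 3.94 (median 3.37) in control ROIs. The mean of the other 43 members had r = 0.61 in knockdown and 0.43 in control ROIs with the immunoproteasome mean (0.30 without ROI 26 and 0.01 without ROI 14). The highest of these members were Psmg4 in knockdown ROIs (0.82) and Psma5 in control ROIs (0.66). The 3 immunoproteasome genes had differences of 0.23 to 0.29, and 0 of 3 were called.

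In knockdown ROIs the balance of core and regulatory particle also went with these genes. The core minus regulatory value had r = 0.93 with the immunoproteasome mean in knockdown ROIs (0.88 without ROI 26), and 0.25 in control ROIs (0.44 without ROI 14). ROIs 17, 18 and 19, the highest for the balance, also had the highest immunoproteasome means, at 4.24, 4.27 and 4.26, apart from the other knockdown ROIs. Without these and ROI 26, r was 0.56 over 9 ROIs, while that of Psme1 and Psme2 with the immunoproteasome was 0.90. The difference between the groups in these correlations was not tested.

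**Figure D5:**
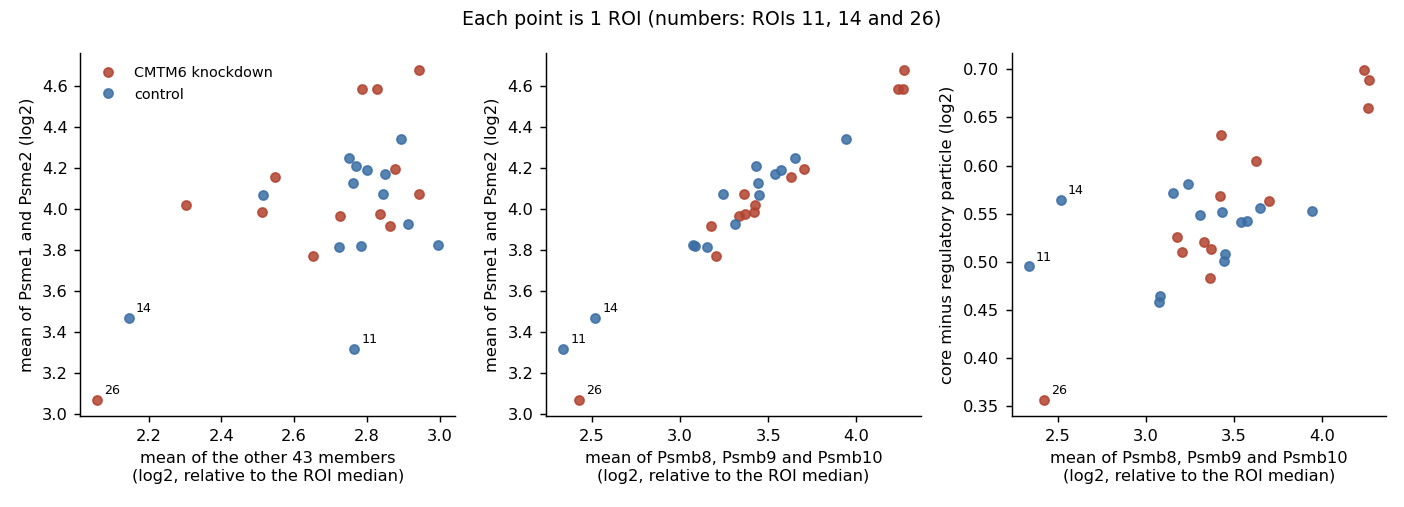
Each point is 1 ROI. The mean of Psme1 and Psme2 is plotted against the mean of the other 43 members (left; r = 0.69 in knockdown and 0.41 in control ROIs) and against the mean of the immunoproteasome genes (middle; r = 0.98 in both groups), and the core minus regulatory value against that same immunoproteasome mean (right; r = 0.93 in knockdown and 0.25 in control ROIs).

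The promoter of Psme1 is shown for its match to the core of the interferon-stimulated response element. That motif was searched after the correlations had been seen, and its part in them was not tested. Psme2 was not among the members with a match, and not every member had a promoter to search. The Psme1 promoter covers chr14:55578244-55578543 (plus strand), and the capitals mark the match, on the opposite strand, which begins 10 bases after the start.
Psme1: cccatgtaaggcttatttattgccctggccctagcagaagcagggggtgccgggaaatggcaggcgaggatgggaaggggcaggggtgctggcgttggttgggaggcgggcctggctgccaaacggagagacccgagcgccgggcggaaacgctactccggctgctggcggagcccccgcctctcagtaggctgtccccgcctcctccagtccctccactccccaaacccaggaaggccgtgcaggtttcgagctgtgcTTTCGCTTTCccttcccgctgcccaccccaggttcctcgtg

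Over all members, motifs were close to their background or few. The promoter table held 39 of the 46 members. TGACNNNGC was present on either strand in 6 of 39 (15.4%), beside 14.0% of 27025 genes of the table, and CCAAT in 15 of 39 (38.5%), beside 41.1%. The interferon-stimulated response element core was present in 5 of 39 (Psmb3, Psmd4, Psmd9, Psme1 and Psmg4), or 12.8%, beside 3.99%. In knockdown ROIs these 5 had r = 0.73, 0.30, 0.26, 0.95 and 0.82, in that order, with the immunoproteasome mean. In control ROIs they had 0.39, 0.39, 0.20, 0.96 and 0.58. A match is a run of letters and not a measured binding site.

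Other genes of the pathway were described from lists taken by name. Of 11 partners of the proteasome, 0 were called, and their median difference was -0.08. Adrm1, a ubiquitin receptor of the base, had a difference of -0.11 (SE 0.14), which was 0.01 without ROI 26. Ecpas, a scaffold that binds the proteasome, was at -0.17 (SE 0.09, adjusted p = 0.576, limma). The deubiquitinases Usp14 and Uchl5 had differences of -0.08 (SE 0.09) and -0.16 (SE 0.12), the second -0.09 without ROI 26. Pomp, which matures the core, was at 0.03 (SE 0.10). Of 6 regulators, 0 were called (median -0.12). Nfe2l1, the transcription factor that restores proteasome genes when the proteasome is inhibited, had levels of 2.13 to 3.21 (median 2.78) in knockdown ROIs and 1.97 to 3.76 (median 3.07) in control ROIs. Its difference was -0.28 (SE 0.13, p = 0.0409, adjusted p = 0.486, limma). Ngly1, the glycosidase that activates the protein of Nfe2l1, was at 0.25 (SE 0.14). Of 20 genes of ubiquitin and its delivery, 0 were called, 4 were lower before adjustment, and the median was -0.15. The lowest p values of that list were those of Rps27a, which encodes ubiquitin fused to a ribosomal protein (-0.23, SE 0.09), and of the ligase Ube3c (-0.37, SE 0.14), both with an adjusted p of 0.389 (limma).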

How the data were processed

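Desmin-positive segments were profiled in 13 knockdown and 14 control ROIs. The authors sequenced the probe tags, used the GeoMx DSP Analysis Suite and deposited signal values for 18855 targets. Its version, normalization and filters were not given in the sources used here. Deposited signal values were whole multiples of the worth of 1 read (within 0.001 reads) for at least 99.3% of targets in each ROI, which was used only to describe depth. Whether molecular identifiers were used to count these reads was not given in the sources used here. Intervals come from the fit over ROIs and cover the spread between ROIs.

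Levels were log2(value + 1) minus the ROI median over all targets. Knockdown and control ROIs were compared with limma 3.58.1 (trend, two-sided, no filter, adjusted p under 0.05 over all targets) in R 4.3.3. The fit was tested on simulated data drawn independently for each target and ROI, which does not cover shared animals or correlated targets. Intervals use limma's SE with the residual degrees of freedom of the 27 ROIs. Scores, medians and correlations were computed in Python 3.11.15 with no test. Alternatives were other scalings, pseudocounts of 0.1 and 5, a background filter, array weights, a Student t test and leaving out each ROI.

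The members and lists were chosen with earlier results of these data known. Named in full were members with the 4 highest and 4 lowest differences, the catalytic subunits, Psmd14, Psme1 and Psme2, the 3 members most and least correlated with the others in each group, and pathway genes fixed by name or by the smallest p of each list. Sequences are RefSeq promoters of GRCm38.p6.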

Additional observations from a re-analysis of the deposited data

How the results depend on the processing

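The count of members called higher stayed at 0 under the alternatives run, and that of members called lower stayed at 0 under all of them except the deposited values without centring, where it was 46 and the median log2 difference of the members was -0.64. There the sign turned for Ngly1 -0.36, Pomp -0.58, Psma5 -0.60, Psma7 -0.59, Psmb10 -0.36, Psmb8 -0.31, Psmb9 -0.37, Psmd13 -0.56, Psmd2 -0.55, Psme1 -0.41, Psme2 -0.59 and Psmg2 -0.52. With array weights Adrm1 turned to 0.028. Leaving out each ROI in turn, both counts ranged from 0 to 0, the median difference from -0.09 to 0.02 and the core minus regulatory difference from 0.02 to 0.05. The median r over the members depended on the scaling. In knockdown ROIs it was 0.59 with Spearman rho, 0.29 as deposited, 0.41 with 75th percentile scaling, 0.35 centred on targets above background and 0.16 with reads and spread removed, and 0.62 to 0.68 leaving out each ROI. In control ROIs it was 0.31 as deposited, 0.29 with 75th percentile scaling, 0.37 centred on targets above background and 0.19 with reads and spread removed, and 0.42 to 0.71 leaving out each ROI, the lowest without ROI 14. The cause of these shifts was not tested. A gene's sign was counted as turned when it changed with either value past the threshold or with a move of over 1 SE, and a median r as moved when it changed by over its jackknife SE over ROIs. The planned edgeR and DESeq2 fits were not run, because the lowest value was 1 read in only 14 of 27 ROIs and the values were therefore kept as signal. No paired analysis was possible because the ROI numbers are not shared between the groups. ROI 26, with 24 members under 10 reads, limits the precision of the knockdown levels.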
